A study of Rattus norvegicus with 5 samples.

Results

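The genes described here encode the subunits of mitochondrial oxidative phosphorylation, measured in cultured cells of the embryonic rat hypothalamus. They were taken as the probe sets of the rat U34A array whose only gene symbol in the platform annotation begins with *Nduf*, *Cox4* to *Cox8*, *Atp5*, *Uqcr* or *Sdha* to *Sdhd*. The rule found 55 genes, out of 4736 genes with a probe set of their own, and 101 probe sets, out of 8740. Each was represented by the brightest of its probe sets, by the mean over the 5 arrays. Complex I was represented by 24 genes, complex II by 1, complex III by 3, complex IV by 12 and complex V, the ATP synthase, by 9. The other 6 are the assembly factors *Ndufaf3*, *Sdhaf2* and *Cox7a2l*, the ATP synthase inhibitor *Atp5if1*, the *Ndufa4* paralogue *Ndufa4l2* and *Cox6c-ps1*, whose symbol marks it as a *Cox6c* pseudogene. A further 6 probe sets that the annotation gives to several genes were left out.

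Complexes I to IV pass electrons from NADH and succinate to oxygen and, except for complex II, pump protons across the inner mitochondrial membrane, and complex V uses the returning protons to make ATP. Neurons depend heavily on this pathway to drive ion pumps and synaptic transmission. Most of its subunits are encoded in the nucleus, which are those described here, and the mitochondrial genome encodes the others.

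All cells came from primary cultures of the hypothalamus of Wistar rat embryos on embryonic day 17. GFP+ cells had been transfected 24 h after seeding with a plasmid in which a minimal *Trh* promoter drives green fluorescent protein, and were sorted 48 h later for fluorescence. GFP+/- cells had the same transfection and passed through the sorter without selection, so they hold positive and negative cells. NT cells were not transfected. The RNA of GFP+ cells was a pool of 6 experiments and that of the others pools of 3, and 2 arrays were hybridized with GFP+ RNA, 2 with GFP+/- RNA and 1 with NT RNA. The reporter marks transfected cells in which this promoter is active, which need not be all TRH neurons or TRH neurons alone. By the methods, arrays of the same population carried aliquots of a single RNA pool. The labels call them biological replicates. The p-values thus measure only the spread between arrays, which may be technical.

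Signals are MAS 5.0 intensities in arbitrary units, scaled by the authors so that all arrays have nearly the same trimmed mean, between 500.8 and 501. *Mapt*, the neuronal tau transcript, had signals of 12752 and 10426 in GFP+ cells, 7321 and 8967 in GFP+/- cells and 10041 in NT cells. The *Trh* probe set was dim, with 115 and 141, 109 and 106, and 96.6, and its difference of 0.24 on the log2 scale between sorted and unselected cells did not pass (SE 0.29, adjusted p = 0.761). The 3' to 5' signal ratio of the *Gapdh* control, which is higher in degraded or short RNA, was 14.6 and 17.6 in GFP+ cells, 12.7 and 14.2 in GFP+/- cells and 5.45 in NT cells, and that of *Actb* was 22.9 and 18.7, 31.4 and 14.4, and 10.9. Of the 55 genes, 51 were among the brightest 41% of probe sets, those with a mean signal of 175 or more.

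The first comparison asks how the sorted GFP+ cells differed from the unselected GFP+/- cells. Most oxidative phosphorylation transcripts had lower signals in GFP+ cells. The median log2 difference of the 55 genes was -0.22, with 44 of them below 0, against a median of 0.13 over all probe sets and 0.07 over the brightest. The middle 50% of the 55 genes ran from -0.44 to -0.09, and that of all probe sets from -0.21 to 0.47. Both GFP+ arrays lay below both GFP+/- arrays for 31 of the 55 genes (56.4%), against 15.4% of all probe sets and 20.9% of the brightest. Both lay above for 4 genes (7.27%), against 30.4% of all and 31.2% of the brightest. With 2 arrays a side, an exact two-sided permutation test of one gene cannot go below p = 0.333. The direction held under both other scalings. With quantile normalization 28 genes were lower without overlap, against 21.5% of all probe sets, and with equal array medians 39, against 23.5%.

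No single gene of the group passed the test. Limma called 0 of 55 in either direction at an adjusted p under 0.05, against 0% of all probe sets. At an unadjusted p under 0.05 limma had 11 of the genes lower and 1 higher, against 4.75% and 9.15% of all probe sets. By the ratio of averaged signals, 7 genes (12.7%) were more than 1.5-fold lower in GFP+ cells, against 9.91% of all probe sets and 6.84% of the brightest, and 2 (3.64%) more than 1.5-fold higher, against 19.9% and 11.3%. By the brightest probe set of each gene, the pattern was one of many small differences, mostly in one direction. *Ndufb1* was then the one gene beyond 2-fold. Among the other probe sets, a bright one of *Ndufab1* was 2.73-fold lower in GFP+ cells and a bright one of *Ndufb8* 2.48-fold higher. The signals of the 55 probe sets summed to 198535 and 204854 in GFP+ cells, 241617 and 241974 in GFP+/- cells and 181950 in NT cells.

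**Figure D1:**
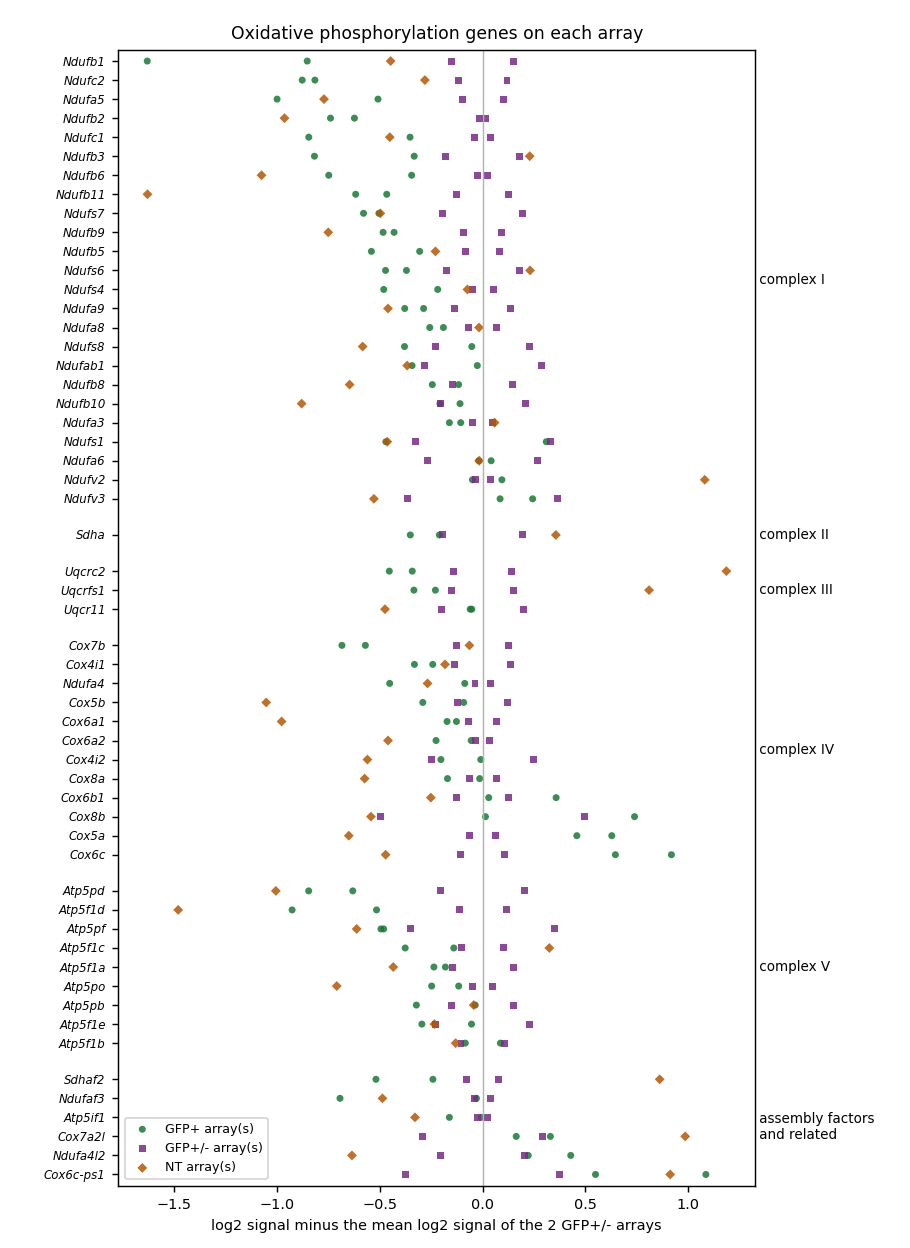
Log2 signal of each of the 55 genes on each of the 5 arrays, minus the mean log2 signal of the 2 GFP+/- arrays (x axis), with genes sorted within each complex by their GFP+ against GFP+/- difference. Circles are GFP+, squares GFP+/- and diamonds NT arrays. For 31 genes both circles lie left of both squares and for 4 to the right.

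Marker genes of other cell types also differed between these populations. All 13 fibroblast and matrix markers had differences below 0 between GFP+ and GFP+/- cells, with a median of -1.37, and their summed signal was 16463 and 22708 in GFP+ against 47203 and 46291 in GFP+/- cells. All 11 neuronal markers were above 0, with a median of 0.60 and a summed signal of 30274 and 25114 against 19770.0 and 21384. None of these markers passed the adjusted threshold, and none was at 0, the lowest mean signal over the arrays being 52.0 among the fibroblast and 15.7 among the neuronal markers. *Dcn*, the fibroblast marker with the lowest difference, had only 9.02 and 9.56 on the GFP+ arrays. The differences closest to 0 were -0.0004 for *Timp1* among the fibroblast and 0.05 for *Syt1* among the neuronal markers. *Syt1* had signals between 7.02 and 25.3. The 15 striated muscle markers had a median of 0.39, with 12 above 0 and a summed signal of 3029 and 3141 against 2269 and 2347, and the 10 astrocyte markers a median of -0.06, with 4 above and 6 below 0. None of these passed either, and the lowest mean signals were 8.08 among the muscle and 14.0 among the astrocyte markers. The part of these lists in the result for oxidative phosphorylation was not tested. In such bulk samples, fewer cells of a type and less RNA per cell cannot be told apart.

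Complex I, the NADH dehydrogenase, had the lowest median of the complexes with 3 or more genes. Its 24 genes had a median of -0.39 between GFP+ and GFP+/- cells, with 21 below 0 and 16 without overlap of the arrays. The accessory subunits, which surround the catalytic core, made up 15 of the 16, out of 20. Of the 4 core subunits, 1 did so, *Ndufs7*. Another of the 4, *Ndufs1*, was nearly without signal, between 4.98 and 8.66 on all arrays. The 9 *Ndufb* genes, accessory subunits of the membrane arm, had a median of -0.54.

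*Ndufb1* had signals of 273 and 159 in GFP+ cells, 444 and 546 in GFP+/- cells and 361 in NT cells. The GFP+ arrays were the lowest of the 5, and the log2 difference from GFP+/- cells was -1.24 (SE 0.31, adjusted p = 0.202). *Ndufc2* had 4735 and 4536 in GFP+ cells, 7672 and 9044 in GFP+/- cells and 6859 in NT cells. Its GFP+ arrays were again below all others, with a log2 difference of -0.85 (SE 0.18, adjusted p = 0.177). That was the smallest adjusted p in this comparison among the chosen probe sets of the 55 genes. *Ndufa5*, an accessory subunit of the peripheral arm, had 1445 and 2030.3, 2696 and 3094, and 1693, so that GFP+/- cells stood above both other populations (-0.75, SE 0.22, adjusted p = 0.252). *Ndufb8*, the gene with the highest mean signal in complex I, had 10447 and 9561 in GFP+ cells, 12533 and 10235 in GFP+/- cells and 7235 in NT cells. The GFP+ and GFP+/- arrays of *Ndufb8* overlapped, and the log2 difference was -0.18 (SE 0.21, adjusted p = 0.747).

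Complex II was represented only by *Sdha*, its flavoprotein subunit, which also oxidizes succinate in the citric acid cycle. *Sdha* had signals of 1616 and 1465 in GFP+ cells, 2138 and 1634 in GFP+/- cells and 2393 in NT cells. The GFP+ arrays were the lowest, though close to one GFP+/- array, with a log2 difference of -0.28 (SE 0.19, adjusted p = 0.585). The 3 genes of complex III, the cytochrome bc1 complex, had differences between -0.40 and -0.06.

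Complex IV, cytochrome c oxidase, was less uniform. Its 12 genes had a median of -0.12 between GFP+ and GFP+/- cells, with 8 below and 4 above 0. *Cox7b* was the one gene of the complex more than 1.5-fold lower, with signals of 1701 and 1840.4 in GFP+ cells, 2982 and 2502 in GFP+/- cells and 2613 in NT cells (log2 difference -0.63, SE 0.17, adjusted p = 0.233). *Cox6c*, by contrast, had 314 and 379 in GFP+ cells, 216 and 186 in GFP+/- cells and 145 in NT cells. Here the GFP+ arrays were the highest and the NT array the lowest, with a log2 difference from GFP+/- cells of 0.78 (SE 0.23, adjusted p = 0.257). A second, dimmer *Cox6c* probe set had a difference of the other sign, -0.43 (SE 0.42, adjusted p = 0.707). *Cox5a* had 228 and 203 in GFP+ cells, 154 and 141 in GFP+/- cells and 94.0 in NT cells. The 3 populations of *Cox5a* were ordered without overlap, with a difference of 0.54 between GFP+ and GFP+/- cells (SE 0.25, adjusted p = 0.412). *Cox6a1*, with the highest mean signal of the complex, had 11130 and 11487 in GFP+ cells, 13136 and 11982 in GFP+/- cells and 6374 in NT cells. The GFP+ arrays were just below the GFP+/- arrays, at -0.15 (SE 0.19, adjusted p = 0.774).

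Several complex IV subunits exist as a widely expressed isoform and one restricted to some tissues. *Cox4i2*, known from lung and from low oxygen, had 567 and 496 in GFP+ cells, 678 and 480.4 in GFP+/- cells and 387 in NT cells, and its widely expressed partner *Cox4i1* 3442 and 3235, 4478 and 3701, and 3587. The GFP+ and GFP+/- arrays overlapped for *Cox4i2* (log2 difference -0.11, SE 0.23) and did not for *Cox4i1* (-0.29, SE 0.18). *Cox6a2*, the heart and skeletal muscle isoform, had 366 and 325, 371 and 389.8, and 277, and differed by -0.14 (SE 0.19), close to the -0.15 of *Cox6a1*. The muscle isoform *Cox8b* was dim, with 57.7 and 95.3, 80.5 and 40.6, and 39.2, and overlapped (0.38, SE 0.52), whereas *Cox8a* had 10498 and 9419, 11092 and 10133, and 7125 and differed by -0.09 (SE 0.19). None of these brightest probe sets passed the test in any comparison. Other probe sets did not always follow. A dimmer bright one of *Cox8a* passed in GFP+/- against NT cells (1.19, SE 0.21, adjusted p = 0.0292), and a second of *Cox6a2* was higher on both GFP+ than on both GFP+/- arrays (0.97, SE 0.42, adjusted p = 0.372). For *Cox8b* the sign of the difference was reversed, to -0.12, without the second GFP+/- array.

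In complex V, 8 of 9 genes were below 0 between GFP+ and GFP+/- cells, with a median of -0.21, and 6 did so without overlap. The largest differences were in a peripheral stalk and a central stalk subunit, the parts that hold the catalytic head still and rotate within it. *Atp5pd*, of the peripheral stalk, had 2566 and 2977 in GFP+ cells, 4000.4 and 5312 in GFP+/- cells and 2297 in NT cells (log2 difference -0.74, SE 0.21, adjusted p = 0.240). *Atp5f1d*, the central stalk subunit delta, had 2105 and 1584, 3258 and 2780.0, and 1079 (-0.72, SE 0.21, adjusted p = 0.247). In both the GFP+/- arrays were the highest and the NT array the lowest. *Atp5f1b*, the catalytic beta subunit and the gene with the highest mean signal of all 55, had 14253 and 16043 in GFP+ cells, 14047 and 16247 in GFP+/- cells and 13796 in NT cells. Its GFP+ and GFP+/- arrays spanned nearly the same range, with a log2 difference of 0.00 (SE 0.21).

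Outside the complexes, the 6 associated genes had a median of 0.08. *Atp5if1*, which inhibits the ATP synthase when it would run backwards, had the highest mean signal among them, with 2574 and 2865 in GFP+ cells, 2833 and 2925 in GFP+/- cells and 2292 in NT cells. The arrays overlapped and the difference was -0.08 (SE 0.16, adjusted p = 0.860). *Ndufa4l2* (311 and 359 in GFP+ cells, 231 and 307 in GFP+/- cells, 172 in NT cells) and *Cox6c-ps1* (54.9 and 79.7, 48.6 and 29.0, 70.6) were higher on both GFP+ than on both GFP+/- arrays. Their log2 differences were 0.33 (SE 0.24, adjusted p = 0.607) and 0.82 (SE 0.47, adjusted p = 0.511).

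**Figure D2:**
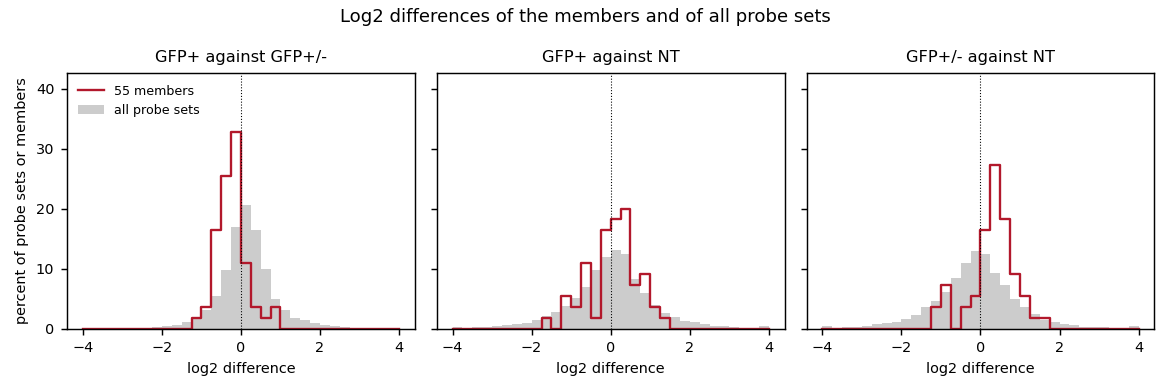
Distribution of log2 differences in the 3 comparisons (x axis, bins of 0.25, values beyond 4 placed in the end bins) for all 8740 probe sets (grey bars) and the 55 genes (red line), as percent of each set. The medians of the 55 genes are -0.22, 0.13 and 0.45, and those of all probe sets 0.13, 0.06 and -0.09.

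The comparisons with NT cells ask how the transfected cells, sorted or not, differed from cells that were not transfected. Both rest on the same single NT array, which the fit assumes to vary like the others, and they share arrays with the first comparison, so the 3 are not independent. Transfection, passage through the sorter and the pool of RNA cannot be told apart here. The higher *Gapdh* and *Actb* 3' to 5' ratios of both transfected populations, given above, move with both comparisons, and their part in them was not tested.

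Unselected GFP+/- cells had higher oxidative phosphorylation signals than NT cells. The median log2 difference was 0.45, with 44 of the 55 genes above 0, against a median of -0.09 over all probe sets and 0.03 over the brightest. With quantile normalization the median of the 55 genes was 0.35 and with equal medians 0.57, against 0.02 over all probe sets with either. By averaged signals 17 genes (30.9%) were more than 1.5-fold higher, against 21.8% of all probe sets and 24.7% of the brightest, and 6 (10.9%) more than 1.5-fold lower, against 26.3% and 22.7%. Limma called 3 genes higher, against 4.2% of all probe sets, and 2 lower, against 5.03%. These were 5.45% and 3.64% of the group, where the brightest probe sets had 8.48% and 9.68%. The median was 0.46 in complex I, 0.51 in complex IV, where all 12 genes were above 0, and 0.43 in complex V, but -0.81 in complex III. The summed signal of the 5 erythroid markers was 16278 and 11490 in GFP+/- cells, 7506 and 8220.4 in GFP+ cells and 1246 in NT cells, and the lowest mean signal of a marker in that list was 284. Most of the GFP+/- sum came from the globin genes *Hbb* (8361 and 5760) and *Hbb-b1* (6265 and 4217). The list had a median of 1.90 in GFP+/- against NT cells, with 4 above 0 and 2 that passed as higher. *Slc4a1* was flat, with 401 and 394 in GFP+ cells, 378 and 419 in GFP+/- cells and 414 in NT cells. *Alas2* was higher on both GFP+ than on both GFP+/- arrays. The 11 neuronal markers had a median of -1.59 in GFP+/- against NT cells, where 6 passed as lower, and of -0.67 for GFP+ against NT cells, where 2 did. The 13 fibroblast and matrix markers had a median of 0.83 in GFP+/- against NT cells, with 9 above 0 and 2 that passed as higher, and of -0.51 for GFP+ against NT cells, where 2 passed as lower. The summed signal of the fibroblast markers was 21417 in NT cells. The part of other cells in the result was not tested.

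Sorted GFP+ cells lay between. Against NT cells their median was 0.13, with 33 of 55 genes above 0, close to the 0.06 over all probe sets. Limma called 0 genes higher, against 4.38% of all probe sets, and 4 lower (7.27%), against 4.06% of all and 7.98% of the brightest. At an unadjusted p under 0.05 limma had 8 higher (14.5%) and 11 lower (20%), against 12.9% and 11.4% of all probe sets and 21.5% and 18.4% of the brightest. The median was 0.02 in complex I, 0.47 in complex IV, 0.13 in complex V and -1.09 in complex III. By averaged signals 10 genes (18.2%) exceeded 1.5-fold upward and 9 (16.4%) downward, against 25.6% and 21.3% of all probe sets. The mean signal was highest in GFP+/- cells for 37 of the 55 genes (67.3%), in NT cells for 11 and in GFP+ cells for 7. For all probe sets the share with the highest mean in GFP+/- cells was 23.5%.

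Of the 11 genes with their highest mean signal in NT cells, 4 passed as lower in GFP+ than in NT cells. *Uqcrc2*, a core protein of complex III, had 868 and 803 in GFP+ cells, 1212 and 999 in GFP+/- cells and 2501 in NT cells. It fell in GFP+ cells by 1.58 on the log2 scale (SE 0.22, adjusted p = 0.0175), and the log2 difference of GFP+/- cells from NT cells was -1.18 (SE 0.22, adjusted p = 0.0304). *Uqcrfs1*, the Rieske iron-sulphur subunit of the same complex, had 2643 and 2459, 3441 and 2791, and 5429.9, a difference of -1.09 in GFP+ cells (SE 0.22, adjusted p = 0.0440) and of -0.81 in GFP+/- cells, which did not pass (SE 0.22, adjusted p = 0.0848). In both genes the NT array was the highest by a wide margin. All 3 probe sets of *Uqcrfs1* were lower than in NT cells, with log2 differences of -1.09, -1.30 and -1.84 in GFP+ cells. The third gene of complex III, *Uqcr11*, went the other way, with 3402 and 3383 in GFP+ cells, 4049.9 and 3073 in GFP+/- cells and 2539 in NT cells, and did not pass.

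*Ndufv2*, a core subunit of complex I that carries an iron-sulphur cluster, had 844 and 932 in GFP+ cells, 895 and 851 in GFP+/- cells and 1845 in NT cells. It was lower in both, by -1.06 (SE 0.20, adjusted p = 0.0342) and -1.08 (SE 0.20, adjusted p = 0.0304) on the log2 scale, while GFP+ and GFP+/- arrays overlapped. *Sdhaf2*, an assembly factor that helps attach the flavin to *Sdha*, had 274 and 227, 307 and 342, and 589. Its log2 difference was -1.24 in GFP+ (SE 0.26, adjusted p = 0.0448) and -0.86 in GFP+/- cells (SE 0.26, adjusted p = 0.102).

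In the other direction, 3 genes rose in GFP+/- over NT cells. *Ndufb11*, an accessory subunit of complex I, had 8402 and 7567 in GFP+ cells, 10629 and 12672 in GFP+/- cells and 3753 in NT cells. The 3 populations did not overlap, and the log2 difference was 1.63 for GFP+/- (SE 0.24, adjusted p = 0.0208) and 1.09 for GFP+ over NT cells (SE 0.24, adjusted p = 0.0527). A second *Ndufb11* probe set was dim, between 4.72 and 39.4, and highest on the NT array. With the mean of the probe sets of each gene in place of the brightest, *Ndufb11* no longer passed in GFP+/- cells (0.42, adjusted p = 0.357) and was reversed in GFP+ cells (-0.78). *Atp5f1d*, with the signals given above, differed by 1.48 in GFP+/- cells (SE 0.25, adjusted p = 0.0271), and its second bright probe set by 1.64 (SE 0.23, adjusted p = 0.0181). *Ndufb2* had 2518 and 2729.5 in GFP+ cells, 4246 and 4162 in GFP+/- cells and 2156 in NT cells. GFP+/- cells stood alone at the top, with a difference of 0.96 (SE 0.19, adjusted p = 0.0393).

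**Figure D3:**
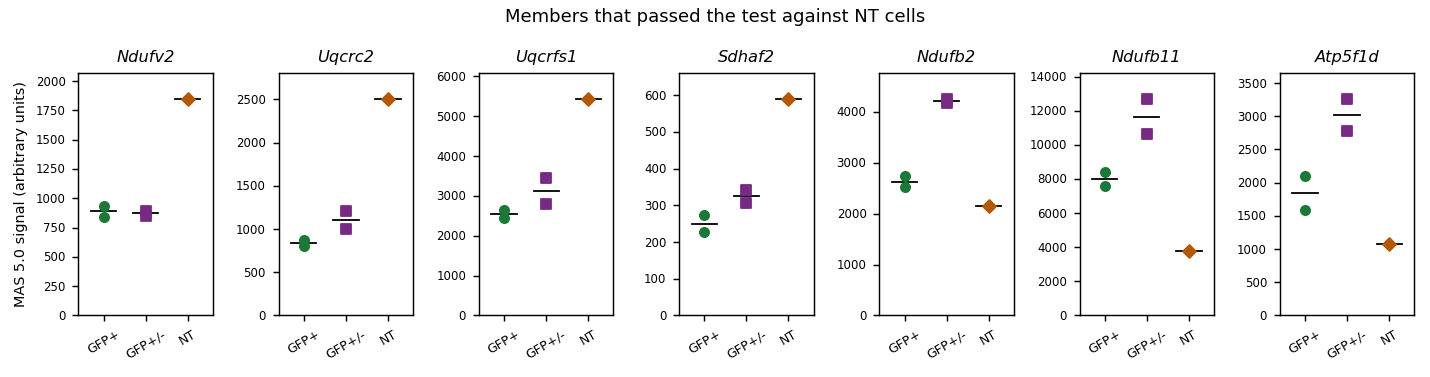
MAS 5.0 signal (y axis, linear, from 0, own scale for each gene) of the 7 genes that passed the adjusted threshold against NT cells. Each point is an array and each line the mean of a population. *Ndufv2*, *Uqcrc2*, *Uqcrfs1* and *Sdhaf2* are highest and *Ndufb2*, *Ndufb11* and *Atp5f1d* lowest on the NT array.

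Without any one of the 4 replicated arrays, or with a prior without intensity trend, 0 of the 55 genes passed in either comparison. Few probe sets of any kind then passed, at most 0.0229% of all, except that 3.70% and 3.81% did for GFP+/- against NT cells without one of the GFP+ arrays, so that for most of these settings the 0 is no property of the group. Every log2 difference of these 7 genes kept its sign where they had been called. By their brightest probe sets, *Cox6c*, *Cox5a*, *Ndufa4l2*, *Cox5b* and *Cox6a1* were also well above NT in GFP+ cells without passing. Their log2 differences were 1.25 (SE 0.28, adjusted p = 0.0556), 1.19 (SE 0.31, adjusted p = 0.0756), 0.96 (SE 0.29, adjusted p = 0.113), 0.86 (SE 0.24, adjusted p = 0.0938) and 0.83 (SE 0.23, adjusted p = 0.0914). In GFP+/- cells *Ndufb6* (1.07, SE 0.25, adjusted p = 0.0548) and *Cox5b* (1.05, SE 0.24, adjusted p = 0.0562) were closest to passing from above. *Ndufb6* had 4883 and 3693 in GFP+ cells, 6094 and 6313 in GFP+/- cells and 2944 in NT cells, and *Cox5b* 9293 and 8097, 10781.5 and 9098, and 4777. For both of these probe sets the NT array was the lowest. A second bright *Ndufb6* probe set had 1182 and 1286 in GFP+ cells, 1477 and 1963 in GFP+/- cells and 1400 in NT cells. Its log2 differences from NT cells were -0.18 in GFP+ (SE 0.24, adjusted p = 0.727) and 0.28 in GFP+/- cells (SE 0.24, adjusted p = 0.561). A second bright *Cox5b* probe set passed in GFP+/- against NT cells (1.68, SE 0.27, adjusted p = 0.0237). *Cox7a2l*, which helps join complexes III and IV, had 2098 and 2354 in GFP+ cells, 1531 and 2293 in GFP+/- cells and 3708 in NT cells and was on the low side of both comparisons (-0.74, adjusted p = 0.191, and -0.99, adjusted p = 0.0983). A second, dimmer *Cox7a2l* probe set passed as lower in GFP+ against NT cells (-1.69, SE 0.30, adjusted p = 0.0309), and it had -0.46 between GFP+ and GFP+/- cells, where the brightest had 0.25.

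The start regions of some of these nuclear genes are shown. Whether their letters go with the direction of a difference was not tested. RefSeq promoter windows of the rat assembly GRCr8, 250 bases before to 50 after each start, were found for 47 of the 55 genes. They were searched on both strands for short motifs of factors known to act on respiratory genes, NRF1 (GCGCATGC), ETS/GABP (CCGGAA) and YY1 (AAGATGG). No matches of different motifs overlapped in the windows of these genes. The YY1 letters stood in 13 of the 47 windows (27.7%), against 7.23% of the windows of 4206 genes on the array and 7.01% of all 33469. In 11 of the 13 the match began between bases 221 and 280 of the window, around the start, as in 3.30% of the genes on the array, and 10 of the 13 matches were on the strand of the gene. These letters hold ATGG, which also stands at many translation starts. The ETS/GABP letters stood in 14 (29.8%), against 19.4% and 15%, and the NRF1 letters in 2 (4.26%), against 3.19% and 2.47%. A match is a description of the letters and was not tied to binding. Of the genes lower than in NT cells, *Uqcrc2* (chr1:184598990-184599289, plus strand) held the ETS/GABP letters at 2 places and the YY1 letters at 1, and *Uqcrfs1* (chr17:34186352-34186651, plus strand) the ETS/GABP letters at 1. Of those higher in GFP+/- cells, *Ndufb11* (chrX:4126067-4126366, plus strand) and *Atp5f1d* (chr7:10214301-10214600, minus strand) held none of the 3. *Ndufv2*, lower in both, also held none. *Sdhaf2*, lower in GFP+ than in NT cells, held the ETS/GABP letters at 3 places and neither of the others. *Ndufb2*, higher in GFP+/- cells, held none. The windows of *Uqcrc2*, *Uqcrfs1*, *Ndufb11* and *Atp5f1d* follow from 5′ to 3′ on the strand of the gene, with motif matches in capitals.
Uqcrc2: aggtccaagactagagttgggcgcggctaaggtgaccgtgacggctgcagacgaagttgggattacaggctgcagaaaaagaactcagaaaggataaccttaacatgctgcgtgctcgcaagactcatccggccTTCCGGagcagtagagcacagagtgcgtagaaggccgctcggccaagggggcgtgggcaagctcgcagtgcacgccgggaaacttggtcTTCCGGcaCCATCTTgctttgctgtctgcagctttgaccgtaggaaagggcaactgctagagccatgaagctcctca
Uqcrfs1: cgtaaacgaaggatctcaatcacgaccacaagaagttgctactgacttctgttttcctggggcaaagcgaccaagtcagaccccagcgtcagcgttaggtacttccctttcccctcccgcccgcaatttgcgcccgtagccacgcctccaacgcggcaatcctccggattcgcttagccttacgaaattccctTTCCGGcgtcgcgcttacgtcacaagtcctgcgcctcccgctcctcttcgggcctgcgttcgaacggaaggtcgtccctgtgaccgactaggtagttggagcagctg
Ndufb11: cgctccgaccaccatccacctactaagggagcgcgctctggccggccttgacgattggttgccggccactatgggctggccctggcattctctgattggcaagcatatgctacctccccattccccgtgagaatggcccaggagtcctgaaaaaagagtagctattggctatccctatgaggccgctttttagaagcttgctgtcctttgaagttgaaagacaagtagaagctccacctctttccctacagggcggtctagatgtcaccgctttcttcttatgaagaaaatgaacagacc
Atp5f1d: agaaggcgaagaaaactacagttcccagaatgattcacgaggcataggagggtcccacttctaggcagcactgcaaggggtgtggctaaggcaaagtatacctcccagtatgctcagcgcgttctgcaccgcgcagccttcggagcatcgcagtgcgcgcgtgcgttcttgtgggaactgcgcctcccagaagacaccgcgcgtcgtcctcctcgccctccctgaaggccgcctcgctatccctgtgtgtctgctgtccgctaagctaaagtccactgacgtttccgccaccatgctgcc

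Other mitochondrial genes, listed by function, had differences of both signs within each list. Between GFP+ and GFP+/- cells, 12 genes of the citric acid cycle and pyruvate dehydrogenase had a median of -0.10, 13 genes of electron carriers, adenine nucleotide and phosphate exchange, porins and uncoupling -0.21, and 5 of assembly and biogenesis -0.17. None of the 30 passed in that comparison. Against NT cells the medians of these lists, in the same order, were -0.11, -0.20 and -0.44 in GFP+ cells. In GFP+/- cells they were 0.16, -0.26 and -0.19. *Slc25a5*, which exchanges ADP for ATP across the inner membrane, had 6233 and 7009 in GFP+ cells, 11326 and 10776 in GFP+/- cells and 8385 in NT cells, with GFP+ cells lowest and a log2 difference of -0.74 (SE 0.19, adjusted p = 0.205). Its isoform *Slc25a4*, best known from heart and muscle, had 1412 and 2096, 2412 and 2217, and 6539.8. *Slc25a4* was lower than in NT cells in both populations, at -1.93 (SE 0.28, adjusted p = 0.0206) and -1.50 (SE 0.28, adjusted p = 0.0332).

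The phosphate carrier *Slc25a3*, which brings in the phosphate for ATP synthesis, had 4421 and 4556 in GFP+ cells, 4398 and 4158 in GFP+/- cells and 10777 in NT cells. Its differences from NT cells were -1.26 (SE 0.20, adjusted p = 0.0247) and -1.33 (SE 0.20, adjusted p = 0.0226). *Etfa*, which feeds electrons from fatty acid oxidation into the chain, was lower too, at -2.35 (SE 0.32, adjusted p = 0.0168) and -1.91 (SE 0.32, adjusted p = 0.0256), and so was *Dlst* of the citric acid cycle, at -1.40 (SE 0.23, adjusted p = 0.0242) and -1.47 (SE 0.23, adjusted p = 0.0226). *Pdha1* of pyruvate dehydrogenase passed as lower in GFP+/- cells (-0.98, SE 0.21, adjusted p = 0.0443). *Pc*, which makes oxaloacetate from pyruvate, was higher in GFP+ cells (1.13, SE 0.22, adjusted p = 0.0379) and *Idh2*, the NADP-dependent isocitrate dehydrogenase, in GFP+/- cells (1.26, SE 0.22, adjusted p = 0.0293). In all, 4 of the 30 passed as lower and 1 as higher in GFP+ cells. The shares were 4.06% and 4.38% of all probe sets, and 7.98% and 8.48% of the brightest. In GFP+/- cells 5 of the 30 passed as lower and 1 as higher. There the shares were 5.03% and 4.2% of all probe sets, and 9.68% and 8.48% of the brightest.

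Beyond mitochondria, 12 glycolytic enzymes, which make ATP without oxygen, had medians of 0.07 in GFP+ against GFP+/- cells, -0.11 for GFP+ against NT cells and -0.14 for GFP+/- against NT cells. The 41 cytosolic ribosomal protein genes, another set of bright and widely expressed transcripts, had -0.14, 0.65 and 0.73. Both GFP+ arrays were below both GFP+/- arrays for 19 of the 41, against 15.4% of all probe sets and 20.9% of the brightest. They were above for 4, against 30.4% and 31.2%. The medians of oxidative phosphorylation and ribosomal protein genes had the same signs in the 3 comparisons, and whether they differ was not tested.

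Separate probe sets of one gene did not always go the same way. Of the 28 genes with more than 1 probe set, 9 had both signs in GFP+ against GFP+/- cells, 10 in GFP+ against NT and 11 in GFP+/- against NT cells. Among the 21 with more than 1 bright probe set, these numbers were 4, 4 and 5. By all probe sets, bright or dim, 18 genes had both signs in at least one comparison. *Cox6c*, *Cox6a1*, *Cox4i1*, *Ndufa4l2* and *Ndufb6* were among them. Of the 46 probe sets other than the brightest of their gene, 9 passed the adjusted threshold in at least one comparison with NT cells. These were 2 of *Uqcrfs1* and 1 each of *Ndufa6*, *Ndufb8*, *Ndufs8*, *Cox5b*, *Cox8a*, *Atp5f1d* and *Cox7a2l*. Over all probe sets, 8.44% passed for GFP+ against NT cells and 9.23% for GFP+/- against NT cells. The share of all that passed in at least one was not counted. For *Ndufb8*, 4 bright probe sets had differences of -0.18, -0.08, 1.31 and 0.44 between GFP+ and GFP+/- cells, and the last of these passed against NT cells in GFP+ cells (2.25, SE 0.27, adjusted p = 0.0149) and GFP+/- cells (1.81, SE 0.27, adjusted p = 0.0217). A second bright probe set of *Ndufab1*, the mitochondrial acyl carrier protein, had 962 and 950.4 in GFP+ cells, 2423 and 2806 in GFP+/- cells and 1538 in NT cells, a difference of -1.45 between GFP+ and GFP+/- cells (SE 0.16, adjusted p = 0.121), where the brightest had 7918 and 9864, 8245 and 12229, and 7787 (-0.18, SE 0.26). *Ndufs8*, a core subunit of complex I, had 3078 and 2453 in GFP+ cells, 3739.5 and 2724 in GFP+/- cells and 2130.45 in NT cells with its brightest probe set, which did not pass, whereas another passed as higher in GFP+ (1.55, SE 0.30, adjusted p = 0.0397) and in GFP+/- cells (1.58, SE 0.30, adjusted p = 0.0346) than in NT cells. For *Atp5po*, a peripheral stalk subunit, the brightest had 12082 and 13234, 14819 and 13886, and 8776 and was above NT cells in GFP+ cells by 0.53, where a dimmer one had -0.24.

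*Ndufaf3*, the assembly factor, had 803 and 1272 in GFP+ cells, 1334 and 1265 in GFP+/- cells and 927 in NT cells, and its log2 differences of GFP+ from NT cells were 0.13 and -0.91 by probe set. The brightest probe set of *Ndufs4* had 2238 and 2684, 3235 and 3013, and 2966, that of *Ndufb5* 1936 and 2278, 2981 and 2659.7, and 2402.5, and that of *Ndufv3* 2784 and 3107, 3384 and 2036, and 1819.9. These 3 complex I genes each have a probe set of the other sign in at least one comparison, and none of their probe sets passed. For 14 of the 55 genes the name of the chosen probe set marks probes that several transcripts may share, *Cox8a* and *Atp5if1* among them. *Ndufs1* was nearly without signal, between 4.98 and 8.66 on all arrays.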

How the data were processed

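RNA of 3 cell populations was hybridized to 5 rat U34A arrays. The authors summarised each probe set with MAS 5.0 as a linear signal, the deposited intensity, and scaled each array. Their methods give a target mean of 125 (not that of the deposited values, whose trimmed means are near 501). Of 8799 probe sets, 59 controls were left out. The platform annotation gave 1 gene for 7006, several for 308 and none for 1426, and all 55 symbols were found among RefSeq names of GRCr8. A floor of 1 was applied before log2. The test was limma 3.58.1 (R 4.3.3), fitted to the 5 arrays together with an intensity trend, with Benjamini-Hochberg adjustment over 8740 probe sets (threshold 0.05). Fold counts used the ratio of averaged signals. The fit was tested on simulated data. Tables and plots used Python 3.11.15, pandas 2.3.3, numpy 2.4.6 and matplotlib 3.10.9. Every gene of the group could be named, and signals of the brightest probe set on every array were given for the brightest gene of each complex, the 4 highest and 4 lowest in each comparison, those past the threshold, tissue-restricted isoforms and those with discordant probe sets. The members and lists were chosen with earlier results of these data known. The number of arrays limits the precision.

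Alternatives were quantile normalization, equal medians, 16 added to each signal, the brightest 41% of probe sets, no intensity trend, each replicated array left out, a replicate block, the GFP+ and GFP+/- arrays alone and averaging all probe sets of a gene. Non-overlap counts under other scalings were added after the data were seen.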

Additional observations from a re-analysis of the deposited data

How the results depend on the processing

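The median log2 difference of the 55 genes kept its sign in all comparisons under every alternative run. For GFP+ against GFP+/- cells it was -0.37 with equal medians, where 17 genes were more than 1.5-fold apart, in place of 9, and from -0.31 to -0.18 with 1 array left out. The number more than 1.5-fold apart then ran from 9 to 14, highest without the first GFP+/- array. Among the brightest 41%, 1 of 51 genes passed (*Ndufb1*, adjusted p = 0.0394; 1.96%), against 4.02% of those probe sets. With a replicate block, 0 passed and the median was -0.22. Arrays of the same number are not known to be paired, and their deviations correlated at 0.063 over probe sets. For GFP+ against NT cells, the number past the threshold was 9 among the brightest 41% (17.6%, against 31.6% of those probe sets), 7 with the mean of probe sets (12.7%, against 7.01% of genes), 0 without an intensity trend (0.0229% of all) and from 0 to 0 with 1 array left out (0.0114% of all), in place of 4 (7.27%, against 8.44%). The 4 genes were among the 9 and the 7. For GFP+/- against NT cells it was 14 among the brightest 41% (27.5%, against 32.4%), 9 with equal medians (16.4%, against 9.73%), 0 without an intensity trend (0.0229% of all) and from 0 to 0 with 1 array left out (0.0114% to 3.81% of all), in place of 5 (9.09%, against 9.23%). The 5 genes were among the 14 and the 9. The cause of these changes was not tested. Among the brightest 41% the fit was redone on those probe sets alone and fewer were adjusted for. With 1 array left out there were fewer residual degrees of freedom. Of 25 single log2 differences recomputed under the alternatives, the 2 that reversed were *Cox8b* in GFP+ against GFP+/- cells without the second GFP+/- array (-0.12, in a range from -0.12 to 0.87 with 1 array left out) and *Ndufb11* in GFP+ against NT cells with the mean of its probe sets (-0.78). Depth is not given by arrays. With 2 arrays or 1 in a population, and 4 of the 55 genes below the brightest 41%, small differences of single genes could not be told from the spread.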
